A study of Mus musculus with 6 samples.

Results

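Müller glia are the radial support cells of the retina, and the transcripts described here are 32 genes of these cells out of 49997 genes in the deposited table. They were chosen as named symbols by a rule that has no threshold on their values, although with earlier results of these data known, and every symbol matched 1 row. They fall into 8 identity genes of Müller glia (Glul, Rlbp1, Slc1a3, Aqp4, Kcnj10, Car14, Dkk3 and Sox9), 7 further genes that these cells express at rest (Vim, Apoe, Clu, Abca8a, Sox2, Hes1 and Crym), 14 genes of the reactive state (Gfap, Cebpd, Lcn2, A2m, Serpina3n, Il33, S100a6, Bcl3, Mt1, Mt2, Timp1, Cp, Cd44 and Nes), and 3 genes that mark astrocytes or cell cycle entry (S100b, Aldh1l1 and Ccnd1).

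RNA was sequenced from 6 retinas of male mice, 1 retina per library. Of these, 3 carried the genotype label Samd7 knockout (-10A) and were taken at postnatal day 31, and 3 carried the label c57Bl6/j wt and were taken at postnatal day 36, so that genotype and age cannot be told apart. The labels name no treatment or transgene, do not name the strain background of the knockout, and leave unsaid whether each retina came from its own mouse, so that p-values reflect only how these 6 libraries varied, in part perhaps technically. The study compared the transcriptomes of the groups. Samd7 encodes a protein of photoreceptors, and the comparison below asks what the glial genes did in the same retinas.

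The libraries held 44231112 to 62813549 gene reads. The targeted gene went against its label: Samd7 had 57837, 45755 and 44932 normalized reads under the KO label 1, 2 and 3 and 6349, 8141 and 8122 in wild type 1, 2 and 3. Gene-level reads cannot tell an altered transcript from an intact one, and directions below are for the retinas labelled Samd7 KO. The library of wild type 3 stood apart in lens transcripts, with a sum over 8 lens markers of 6013 normalized reads against 141 to 205 under the KO label and a lowest wild-type sum of 175. For the 32 members, a value without wild type 3 is given where it ends a call. Values of other genes without that library are not given here. Summed rod markers ranged from 2622240 to 2809540 normalized reads under the KO label and from 4358820 to 4728230 in wild type. In bulk tissue, fewer cells of a type and less RNA per cell cannot be told apart.

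At rest, Müller glia take up glutamate released by neurons and convert it to glutamine, carry potassium and water away from active synapses, and take part in the recycling of retinoids for cones. When photoreceptors are stressed or die, the same cells can become reactive. They then add intermediate filaments, of which Gfap is the classical marker, and secrete acute phase proteins and protease inhibitors. Cytokines of the interleukin 6 family act through the shared receptor gp130 (Il6st) and the transcription factor STAT3, and this is the best known route to Gfap.

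All 32 genes reached the level needed for the test, a normalized read count of at least 10 in at least 3 libraries. In wild type their abundance in reads per kilobase of exon scaled to depth (RPKM), on which genes can be compared, spanned 679 ± 49.9 for Apoe to 0.393 ± 0.0903 for Timp1 (SD, n = 3). Apoe, a lipid carrier, was followed by Clu, a secreted chaperone (330 ± 8.27), Dkk3, a secreted Wnt modulator (266 ± 16.9), and Glul (224 ± 6.07). Gfap ranked 16 of 32 in wild type at 9.46 ± 2.26 and 8 of 32 under the KO label at 36.6 ± 4.80. Glul moved from rank 4 to rank 5 on this scale, below Rlbp1, whose values of 175 ± 7.94 in wild type and 179 ± 10.4 under the KO label were near level. The first 5 ranks were held by resting genes in both groups.

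Because regulators of reactivity are among the genes measured, the promoter windows of the members, 250 bases before to 50 after the annotated start (RefSeq, GRCm38.p6), were searched on both strands for letters that fit a STAT site (TTCNNNGAA), a C/EBP site (TTGCNNAA) and the kappa B consensus of NF-kappa B. Windows were found for 23 of the 32 members, 27 windows in all. The STAT letters stood in 2 of them (7.41%, against 8.30% of 32851 windows of all genes), the C/EBP letters in 7 (25.9% against 10.8%) and the kappa B letters in 2 (7.41% against 8.46%). A match is a description of letters and not of a bound site. The sequences of 4 genes, chosen by their results below, are shown, and no link between letters and results was tested. The genes are Gfap, the member with the largest fitted rise, Slc1a3, an identity gene that rose, Bcl3, a reactive regulator that rose, and Lcn2, the reactive gene that fell. Each runs 5′ to 3′ on the gene's own strand and ends at the base before the annotated start, except that Gfap and Bcl3 run on to the end of their match. Capitals mark the STAT letters in Gfap (chr11:102897194-102897450, minus strand) and Slc1a3 (chr15:8710808-8711057, minus strand), the kappa B letters in Bcl3 (chr7:19822744-19823005, minus strand) and the C/EBP letters in Lcn2 (chr2:32387740-32387989, minus strand).
Gfap: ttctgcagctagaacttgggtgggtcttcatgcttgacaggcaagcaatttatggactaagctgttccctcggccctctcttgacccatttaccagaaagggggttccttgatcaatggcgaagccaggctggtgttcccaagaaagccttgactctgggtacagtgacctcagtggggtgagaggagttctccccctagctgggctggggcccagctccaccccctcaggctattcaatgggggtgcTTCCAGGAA
Slc1a3: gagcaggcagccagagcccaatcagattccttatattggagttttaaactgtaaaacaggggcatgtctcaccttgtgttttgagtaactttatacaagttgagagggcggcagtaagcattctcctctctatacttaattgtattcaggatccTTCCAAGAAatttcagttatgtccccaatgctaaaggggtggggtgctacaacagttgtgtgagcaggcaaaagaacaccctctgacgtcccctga
Bcl3: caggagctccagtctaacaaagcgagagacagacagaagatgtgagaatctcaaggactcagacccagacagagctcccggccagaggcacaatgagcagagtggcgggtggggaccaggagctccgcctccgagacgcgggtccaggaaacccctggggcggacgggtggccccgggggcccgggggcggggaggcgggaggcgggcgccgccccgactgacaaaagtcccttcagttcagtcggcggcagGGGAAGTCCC
Lcn2: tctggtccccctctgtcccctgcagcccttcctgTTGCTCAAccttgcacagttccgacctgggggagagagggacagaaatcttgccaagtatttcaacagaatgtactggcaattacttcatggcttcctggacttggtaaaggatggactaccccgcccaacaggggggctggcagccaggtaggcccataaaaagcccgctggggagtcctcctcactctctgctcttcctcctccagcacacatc
The Gfap match begins 2 bases before the annotated start, that of Slc1a3 96 bases before it and that of Lcn2 216, while the match of Bcl3, which encodes a nuclear partner of NF-kappa B, lies just after its start. Of the other members, Kcnj10, Cp, Sox2, Aldh1l1, Mt2 and Il33 held the C/EBP letters and Vim the kappa B letters, so that letters of these kinds stood in genes that rose and in genes that did not pass the test.

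The 8 identity genes split. Glul and Car14 fell, Slc1a3 and Sox9 rose, and Rlbp1, Dkk3, Aqp4 and Kcnj10 did not pass the test (limma-trend on log2(value + 1), called at a Benjamini-Hochberg adjusted p under 0.05 over all 20277 genes tested). Of all genes tested 6.79% were called higher and 5.21% lower. The median log2 fold change of the 8 genes was -0.01, against 0.00 over all genes, with a range from -0.56 to 0.33. Groups did not overlap for 6 of the 8, 3 above and 3 below wild type, against 31.1% of all genes tested (15.9% above and 15.2% below).

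Glul encodes glutamine synthetase, the enzyme that closes the glutamate cycle (chromosome 1, 153899929 to 153909723, GRCm38). Its normalized read counts were 29405, 24451 and 27761 under the KO label 1, 2 and 3 and 38944, 39512 and 38926 in wild type 1, 2 and 3. Every library labelled KO lay below every wild-type library, and wild type was nearly constant. The group means were 27206 ± 2523 and 39128 ± 333 (mean ± SD of 3 libraries each), 1.44-fold lower under the KO label (log2 fold change -0.53 with SE 0.07, adjusted p = 0.000407 by limma). Car14, a membrane carbonic anhydrase of the Müller cell surface (chromosome 3, 95897768 to 95905117), had 4374, 4363 and 4362 normalized reads under the KO label and 6954, 6034 and 6374 in wild type. The 3 libraries labelled KO agreed closely and all lay below wild type, 1.48-fold lower (log2 fold change -0.56 with SE 0.07, adjusted p = 0.000354 by limma).

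Slc1a3 encodes GLAST, the glutamate transporter that supplies glutamine synthetase with its substrate (chromosome 15, 8634124 to 8710807). It went the other way from Glul, with 9857, 11650 and 10881 normalized reads under the KO label and 9002, 7975 and 8808 in wild type. The groups were separate, and the rise was 1.26-fold (log2 fold change 0.33 with SE 0.08, adjusted p = 0.0196 by limma). Sox9, a transcription factor that maintains Müller glia, had 2153, 2081 and 2002 normalized reads under the KO label and 1629, 1711 and 1749 in wild type, a 1.23-fold rise (log2 fold change 0.29 with SE 0.08, adjusted p = 0.0358 by limma). Both calls were close to the threshold. The Slc1a3 call ended without KO 3 (limma adjusted p = 0.0747), wild type 2 (0.102) or wild type 3 (0.0701), and the Sox9 call without KO 1 (0.0726), KO 3 (0.0846), wild type 1 (0.0963), wild type 2 (0.104) or wild type 3 (0.110). Over all alternatives the adjusted p ranged from 0.00188 to 0.102 for Slc1a3 and from 0.0151 to 0.120 for Sox9.

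The water channel Aqp4 and the potassium channel Kcnj10, which sit together in the Müller end feet, differed in sign, and neither passed the test. Aqp4 had 2254, 2454 and 2500 normalized reads under the KO label and 2060, 1963 and 2088 in wild type (log2 fold change 0.24 within a 95% interval of 0.06 to 0.41, adjusted p = 0.0837 by limma). Kcnj10 had 966, 794 and 915 against 1034, 1087 and 1050 (log2 fold change -0.25 within a 95% interval of -0.47 to -0.03, adjusted p = 0.141 by limma). Neither pair of groups overlapped, a property of 31.1% of all genes tested. Rlbp1, the retinaldehyde binding protein CRALBP, had overlapping groups, at 26196, 25195 and 28637 normalized reads under the KO label and 29102, 25571 and 26746 in wild type (log2 fold change -0.02 within a 95% interval of -0.18 to 0.13). The pigment epithelium also makes Rlbp1. The sum of 12 pigment epithelium markers was 1536 to 2204 normalized reads under the KO label and 3652 to 5539 in wild type. Of these 12, limma and edgeR each called 9 lower, DESeq2 7 and limma-voom 10, and each called 0 higher. Limma called 5.21% of all genes tested lower. The part of the pigment epithelium in the Rlbp1 value was not tested. Dkk3 had 46822 ± 2117 and 47021 ± 3838 normalized reads (mean ± SD of 3 libraries each, log2 fold change -0.0039 within a 95% interval of -0.16 to 0.15). The signs of Rlbp1 and Dkk3 turned when values were scaled to total reads.

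**Figure D1:**
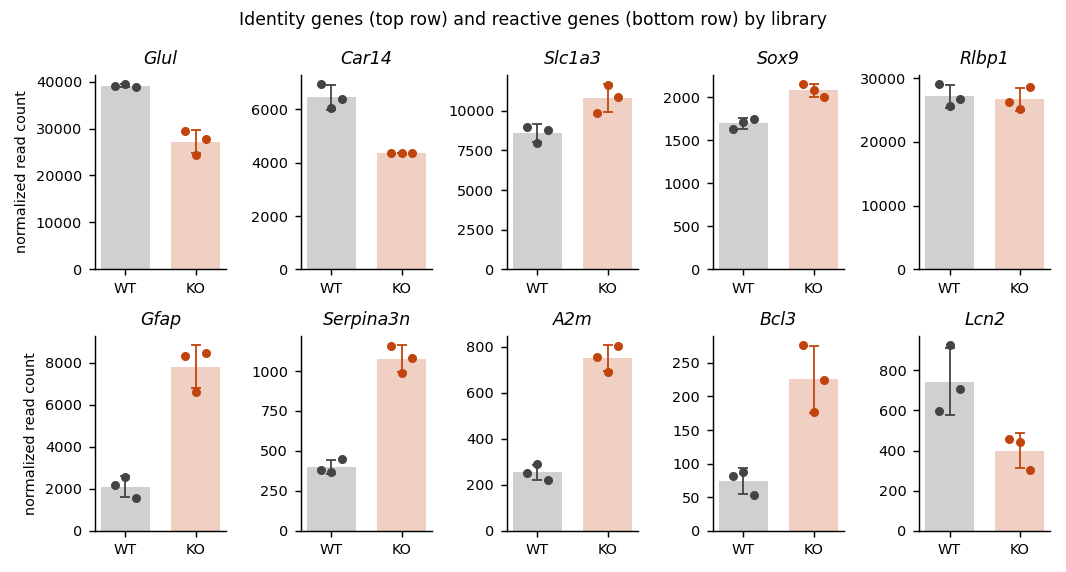
Normalized read counts of 5 identity genes (top row) and 5 reactive genes (bottom row) in the 3 wild-type libraries (WT) and the 3 libraries labelled Samd7 KO (KO). Points are libraries, bars are group means from 0 and error bars are SD. Glul and Car14 lie lower and Slc1a3 and Sox9 higher in every library labelled KO, Rlbp1 overlaps, Gfap, Serpina3n, A2m and Bcl3 lie higher and Lcn2 lower.

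Of the 7 further resting genes, Crym, Vim and Clu rose, 0 fell, and Apoe, Abca8a, Sox2 and Hes1 did not pass (median log2 fold change 0.33, against 0.00 over all genes, with 6.79% of all genes called higher). Crym, a thyroid hormone binding protein, had 6122, 5542 and 6360 normalized reads under the KO label and 3558, 3390 and 3268 in wild type, a 1.76-fold rise (log2 fold change 0.82 with SE 0.08, adjusted p = 2.50e-05 by limma). Vim, the intermediate filament that Müller glia carry at rest, had 7369, 6377 and 7175 against 5514, 5395 and 5372 (1.28-fold, log2 fold change 0.36 with SE 0.07, adjusted p = 0.00837 by limma). Clu had 79002, 68080 and 78335 against 62457, 57094 and 59054 (1.26-fold, log2 fold change 0.33 with SE 0.07, adjusted p = 0.00821 by limma). All 3 genes were separate between the groups. Without wild type 3, the library with the lens transcripts, the Vim and Clu calls ended (limma adjusted p = 0.0558 and 0.0517) while their log2 fold changes stayed at 0.35 and 0.33. In that library Vim, at 5372, was the lowest of the 6.

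Apoe overlapped between groups, at 71682 ± 6002 and 76294 ± 7059 normalized reads (mean ± SD of 3 libraries each, log2 fold change -0.09 within a 95% interval of -0.26 to 0.08). Abca8a, a lipid transporter of the ABC family, had 3459, 5279 and 4094 normalized reads under the KO label and 3252, 2896 and 3297 in wild type (log2 fold change 0.42 with SE 0.13, adjusted p = 0.0556 by limma, range over the alternatives 0.00346 to 0.195). It passed with edgeR (adjusted p = 0.0400) and DESeq2 (adjusted p = 0.0105) on recovered reads and, without KO 1, with limma (adjusted p = 0.00346), and KO 2 held its highest value. Its neighbour in the family, Abca8b, rose 1.46-fold (590 ± 62.0 against 404 ± 10.2 normalized reads, mean ± SD of 3 libraries each, adjusted p = 0.0101 by limma). Reads of these similar genes may be split by the authors' counting. The stem and progenitor factors were the low side of the set: Sox2 had a log2 fold change of -0.13 (between -0.33 and 0.08 at 95% confidence) and Hes1, a target of Notch signalling, -0.23 (between -0.44 and -0.01 at 95% confidence, adjusted p = 0.163 by limma).

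The reactive set held the largest fitted changes of the 32 genes, with Gfap at the top, and moved mostly upward. Of its 14 genes, 8 rose (Gfap, Bcl3, A2m, Serpina3n, S100a6, Cd44, Cebpd and Cp), 1 fell (Lcn2), and Il33, Mt1, Mt2, Timp1 and Nes did not pass, against 6.79% higher and 5.21% lower over all genes tested. Their median log2 fold change was 0.84, with a range from -0.89 to 1.91, against 0.00 over all genes and -0.01 for the identity genes. Groups did not overlap for 11 of the 14, 10 above and 1 below wild type, where 15.9% and 15.2% of all genes tested did so. The summed normalized reads of the 14 genes were 33493 to 36428 under the KO label and 23057 to 25474 in wild type. Those of the identity genes were 120019 to 123675 and 126771 to 139249. The identity sum follows its abundant genes, among them Glul, with group means of 27206 and 39128. By gene, 3 identity genes lay above and 3 below wild type. All 9 reactive calls held under each of the 16 alternatives, including scaling to the geometric mean of the identity genes.

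Among structural genes, Gfap (chromosome 11, 102887336 to 102897200) had 8315, 6614 and 8470 normalized reads under the KO label and 2154, 2550 and 1581 in wild type. The groups were far apart, with the lowest library labelled KO well above the highest wild-type library. Group means were 7800 ± 1030 and 2095 ± 487 (mean ± SD of 3 libraries each), 3.72-fold higher (log2 fold change 1.91 with SE 0.15, adjusted p = 5.15e-06 by limma). Without wild type 3, whose Gfap value was the lowest, the log2 fold change was 1.73, and without wild type 2 it was 2.07. Nes, the intermediate filament nestin of progenitors, had 337, 345 and 401 against 323, 268 and 300 and did not pass (log2 fold change 0.28 within a 95% interval of -0.01 to 0.57, adjusted p = 0.196 by limma). Cd44, the hyaluronan receptor, rose from 240, 246 and 227 normalized reads in wild type to 442, 447 and 433 under the KO label, with little spread in either group (1.85-fold, log2 fold change 0.89 with SE 0.12, adjusted p = 0.000317 by limma).

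Gfap is also made by retinal astrocytes and Cd44 by leukocytes. Of 8 astrocyte markers, 7 were tested, 1 rose (Pdgfra) and 1 fell (Aldoc). Their sum, which follows the most abundant of them, was 42573 to 47523 normalized reads under the KO label and 52182 to 56750 in wild type. Aldoc had a log2 fold change of -0.27 and Pdgfra one of 0.60, so that the sum is no measure of astrocyte content. Pax2, which defines retinal astrocytes, had 14.7, 8.29 and 13.5 against 11.1, 17.3 and 6.59, so that the groups overlapped near the limit for testing. Of the member genes that also mark astrocytes, Aldh1l1 had 1387, 1244 and 1374 against 1129, 1045 and 1099 (log2 fold change 0.29 within a 95% interval of 0.09 to 0.49, adjusted p = 0.0607 by limma) and S100b had 527, 446 and 549 against 563, 490 and 417 (log2 fold change 0.05 within a 95% interval of -0.24 to 0.35). Microglia and macrophage markers summed to 7523 to 8277 normalized reads under the KO label and 5084 to 5584 in wild type, with 11 of 14 higher and 0 lower by limma (14 higher and 0 lower at an unadjusted p under 0.05, and 0 lower by edgeR, DESeq2 or limma-voom). Of all genes tested, limma called 6.79% higher and 5.21% lower, and the share at an unadjusted p under 0.05 was not counted. The part of microglia and macrophages in the Cd44, Apoe and other values was not tested.

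Among inhibitors of proteases and metal carriers, A2m, Serpina3n and Cp rose, Lcn2 fell and Timp1 did not pass. A2m, alpha-2-macroglobulin, a broad protease trap, had 755, 690 and 804 normalized reads under the KO label and 252, 288 and 220 in wild type (2.96-fold, log2 fold change 1.57 with SE 0.13, adjusted p = 6.96e-06 by limma). Serpina3n, a serine protease inhibitor and marker of reactive astrocytes, had 1159, 988 and 1084 against 378, 366 and 448 (2.71-fold, log2 fold change 1.44 with SE 0.12, adjusted p = 5.73e-06 by limma). Both genes were separate by a wide margin. Serpina3n has near relatives that could share its reads, and of 7 listed, only Serpina3g reached the level for testing, at 44.9 ± 9.53 and 36.9 ± 10.9 normalized reads (mean ± SD of 3 libraries each, adjusted p = 0.551 by limma). Cp, the copper ferroxidase ceruloplasmin, had 6043, 6454 and 5829 against 4318, 3939 and 4265 (1.46-fold, log2 fold change 0.55 with SE 0.07, adjusted p = 0.000443 by limma).

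Timp1, an inhibitor of matrix metalloproteases, was near the floor of detection, at 37.2, 36.3 and 32.7 normalized reads under the KO label and 17.1, 22.7 and 15.1 in wild type, 159 reads in all 6 libraries. The groups were separate, and the test was just missed (log2 fold change 0.93 with SE 0.28, adjusted p = 0.0545 by limma, range over the alternatives 0.0187 to 0.184). Timp1 lies inside Syn1 on the opposite strand. Syn1 had group means of 12493 and 11599 normalized reads, and the sources used here do not say if reads were assigned by strand. Il33, a nuclear alarmin stored in resting Müller glia, had 3857, 4649 and 3897 against 3956, 3673 and 3789, and the groups overlapped (log2 fold change 0.11 within a 95% interval of -0.08 to 0.31).

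Lcn2, lipocalin 2, an iron-siderophore carrier and a strong marker of reactive astrocytes, was the reactive gene that fell. Its normalized read counts were 456, 442 and 301 under the KO label and 595, 925 and 708 in wild type (chromosome 2, 32384637 to 32387739). Every library labelled KO lay below every wild-type library, and the difference was 1.86-fold (log2 fold change -0.89 with SE 0.19, adjusted p = 0.00823 by limma, range over the alternatives 1.54e-05 to 0.0415). Lcn2 is also abundant in neutrophils. Of 9 neutrophil markers, 0 were tested and 2 were at 0 in all libraries. Their sum was 3.85 to 12.4 normalized reads under the KO label and 5.13 to 12.99 in wild type, so that neutrophil transcripts were at the floor in both groups.

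Small calcium and metal binding proteins differed among themselves. S100a6, calcyclin, rose from 272, 336 and 327 normalized reads in wild type to 782, 505 and 689 under the KO label (2.12-fold, log2 fold change 1.06 with SE 0.16, adjusted p = 0.00101 by limma). The metallothioneins, which bind zinc and copper and respond to oxidative stress, had overlapping groups. Mt1 had 8858, 8121 and 7852 against 7940, 9131 and 8105 (log2 fold change -0.02 within a 95% interval of -0.19 to 0.15), and Mt2 had 1694, 1617 and 1462 against 1360, 1744 and 1538 (log2 fold change 0.05 within a 95% interval of -0.19 to 0.28). Both upper bounds lay below the interval of S100a6, 0.71 to 1.41. The sign of Mt1 turned with scaling to total reads. Of 18 relatives and partners listed beside them, 14 were tested, 2 rose, S100a11 (1.45-fold) and S100a16 (1.30-fold), and 0 fell by limma (0 also at an unadjusted p under 0.05, 0 by edgeR and DESeq2, and 1 by limma-voom). With 14 tested, these limma counts cannot be told from the 6.79% higher and 5.21% lower of all genes tested.

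The transcription regulators of the reactive set both rose. Bcl3 had 276, 176 and 224 normalized reads under the KO label and 82.1, 87.7 and 52.7 in wild type (3.04-fold, log2 fold change 1.60 with SE 0.23, adjusted p = 0.000614 by limma). Cebpd, a C/EBP factor of the acute phase response, had 3415, 2409 and 2799 against 1591, 1898 and 1482 (1.73-fold, log2 fold change 0.79 with SE 0.13, adjusted p = 0.00175 by limma). In both, KO 2 was the lowest of its group, as it was for 6 of the 8 reactive genes that rose, and wild type 2 was the highest wild-type library for 6 of the 8. Ccnd1, cyclin D1, which reactive Müller glia raise on entry into the cell cycle, had 441, 376 and 458 against 400, 357 and 343 and overlapping groups (log2 fold change 0.21 within a 95% interval of -0.06 to 0.49). None of the 3 astrocyte and cell cycle members passed with limma (1 higher at an unadjusted p under 0.05) or edgeR, while DESeq2 and limma-voom each called 1 higher, Aldh1l1.

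**Figure D2:**
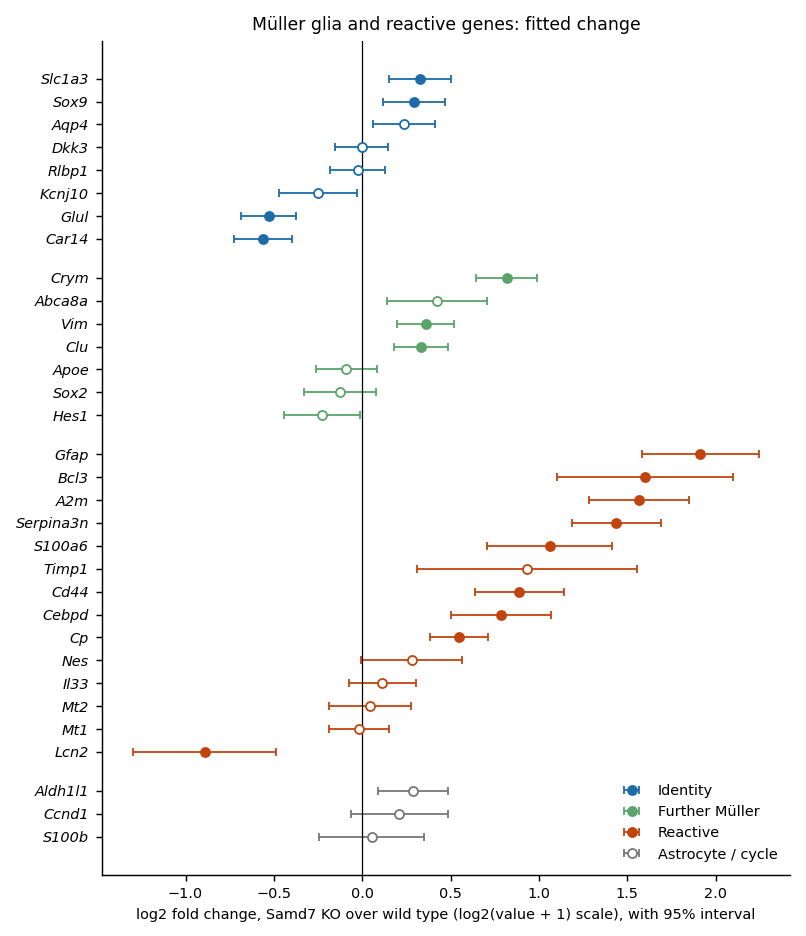
Fitted log2 fold change of each of the 32 genes, retinas labelled Samd7 KO over wild type, on the log2(value + 1) scale with its 95% interval from limma. Filled points passed an adjusted p under 0.05. The identity genes spread on both sides of 0 between -0.56 and 0.33, and the reactive genes run from -0.89 for Lcn2 to 1.91 for Gfap.

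Ratios within a library do not depend on how libraries are scaled. Gfap had 1.13, 1.04 and 1.18 reads per read of Vim under the KO label and 0.391, 0.473 and 0.294 in wild type, a ratio 2.89-fold higher. Against Glul the difference was 5.35-fold, with 0.283, 0.271 and 0.305 under the KO label and 0.0553, 0.0645 and 0.0406 in wild type. Glul reads per read of Slc1a3, the enzyme beside the transporter that feeds it, were 2.98, 2.10 and 2.55 under the KO label and 4.33, 4.95 and 4.42 in wild type. Lcn2 per Serpina3n was 0.393, 0.447 and 0.278 against 1.57, 2.53 and 1.58. Each of these ratios was separate between the groups, and 3 against 3 libraries cannot go below p = 0.1 in an exact two-sided permutation test, so no test is given. For Gfap per Glul, Glul per Slc1a3 and Lcn2 per Serpina3n the separation was fixed in advance. The genes of each such ratio were themselves separate, in opposite directions. Mt1 per Mt2, by contrast, overlapped, at 5.23, 5.02 and 5.37 against 5.84, 5.24 and 5.27.

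**Figure D3:**
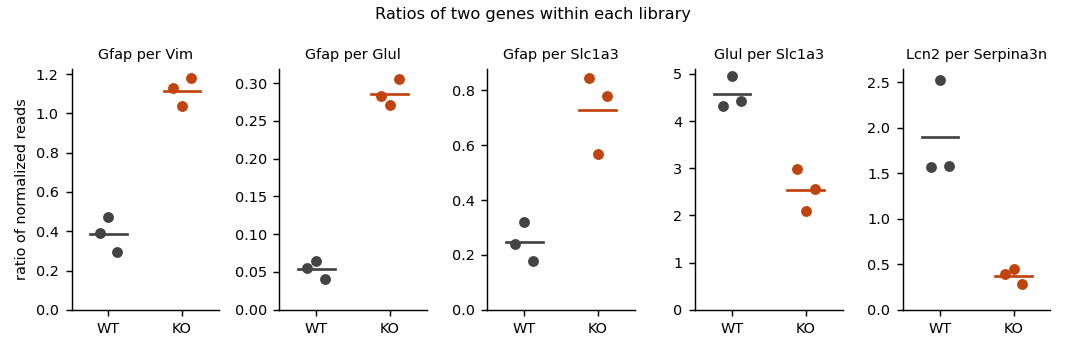
Ratio of the normalized reads of 2 genes within each library, for 3 wild-type libraries (WT) and 3 libraries labelled Samd7 KO (KO). Points are libraries and lines are group means, with axes from 0. The 3 ratios with Gfap on top lie higher under the KO label, and Glul per Slc1a3 and Lcn2 per Serpina3n lie lower, with no overlap.

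Genes of interleukin 6 family signalling were then set beside Gfap. Of 25 listed, 22 were tested, 4 rose (Il6st, Osmr, Stat3 and Socs3), 1 fell (Cish) and 17 did not pass (median log2 fold change 0.21, against 0.00 over all genes). Counts for this and the lists that follow stand against 6.79% of all genes tested called higher and 5.21% lower. Among ligands, Lif had 60.9, 36.3 and 61.6 normalized reads under the KO label and 26.5, 14.1 and 38.6 in wild type, with overlapping groups (log2 fold change 1.05 with SE 0.36, adjusted p = 0.0875 by limma). Clcf1 was on the other side (log2 fold change -0.61 with SE 0.21, adjusted p = 0.0826 by limma). Il6 had 0 reads in all libraries, and Osm and Cntf had 10 and 20 reads in the 6 libraries together. Of the ligands, these 3 were at or near the floor and were not tested. Il11, with 81 reads in the 6 libraries together, and Lif, with 238, were also low.

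Of the receptors, Osmr, the oncostatin M receptor, had 311, 370 and 392 normalized reads under the KO label and 147, 146 and 133 in wild type (2.52-fold, log2 fold change 1.32 with SE 0.14, adjusted p = 6.43e-05 by limma). Il6st, the shared gp130 chain, rose 1.56-fold (2844 ± 399 against 1823 ± 224, mean ± SD of 3 libraries each, adjusted p = 0.00398 by limma). Lifr had a log2 fold change of 0.24 (SE 0.14, limma adjusted p = 0.291) and Cntfr one of -0.22 (SE 0.07, limma adjusted p = 0.0742). Stat3 had 8371, 7767 and 8899 against 4157, 3658 and 3890, 2.14-fold higher with tight groups (log2 fold change 1.10 with SE 0.08, adjusted p = 2.24e-06 by limma). Socs3, the feedback inhibitor that STAT3 induces, had 1396, 942 and 1160 against 326, 355 and 349 (3.40-fold, log2 fold change 1.74 with SE 0.14, adjusted p = 4.96e-06 by limma). Cish, the feedback inhibitor known as a STAT5 target, had 653, 532 and 690 against 1019, 1081 and 1100 (1.71-fold lower, log2 fold change -0.78 with SE 0.11, adjusted p = 0.000787 by limma). These 2 feedback genes lay on opposite sides, and the inhibitors Socs1 (log2 fold change 0.28, adjusted p = 0.544 by limma) and Pias3 (0.15, adjusted p = 0.269 by limma) did not pass and had overlapping groups.

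**Figure D4:**
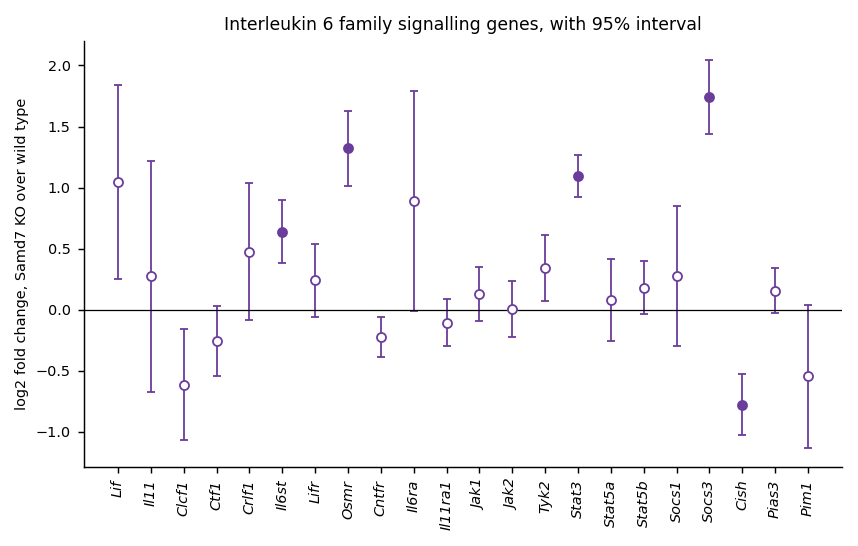
Fitted log2 fold change with 95% interval (limma, log2(value + 1) scale) of the 22 tested genes of interleukin 6 family signalling, retinas labelled Samd7 KO over wild type, ordered from ligands and receptors to kinases, STATs and feedback genes. Filled points passed an adjusted p under 0.05: Il6st, Osmr, Stat3 and Socs3 above 0 and Cish below 0.

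The factors that partner Bcl3 and Cebpd were followed in a list of 26 NF-kappa B and acute phase genes. Of 17 tested, 4 rose (Nfkb1, Nfkbia, Vcam1 and Cebpb), 1 fell (Hspb1) and 12 did not pass (median log2 fold change 0.46). Nfkb1, the p50 subunit, had 1713, 1484 and 1684 normalized reads under the KO label and 428, 403 and 367 in wild type (4.08-fold, log2 fold change 2.02 with SE 0.11, adjusted p = 1.20e-07 by limma). Its inhibitor Nfkbia rose 2.01-fold (9848 ± 562 against 4901 ± 335, mean ± SD of 3 libraries each, adjusted p = 3.68e-06 by limma), and Cebpb rose 1.48-fold (limma adjusted p = 0.0426). The heat shock protein Hspb1 was 1.46-fold lower (limma adjusted p = 0.0171). These genes are not particular to glia, and which cells carried the differences cannot be read from bulk tissue.

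Relatives of the filament genes were unequal. Plec, the linker plectin that ties filaments together, had 5465, 5714 and 6131 normalized reads under the KO label and 2343, 1818 and 2122 in wild type (2.76-fold, log2 fold change 1.47 with SE 0.10, adjusted p = 1.06e-06 by limma). Synm, synemin, a filament protein that copolymerises with vimentin, was 1.55-fold lower (740 ± 146 against 1149 ± 144, mean ± SD of 3 libraries each, adjusted p = 0.0121 by limma). These were the 2 genes called among 13 tested in a list of 20 serpin, filament and metalloprotease relatives (median log2 fold change 0.20). That is 1 in each direction, near the 6.79% higher and 5.21% lower of all genes.

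Partners of the identity genes in transport and retinoid handling also split. Of 24, all tested, 4 rose (Rdh10, Slc38a5, Abca8b and Slc1a2), 3 fell (Rgr, Stra6 and Abcg1) and 17 did not pass (median log2 fold change 0.10). Rdh10, a retinol dehydrogenase of Müller glia and pigment epithelium, had 3945, 4136 and 3924 normalized reads under the KO label and 2151, 2130 and 2017 in wild type (1.91-fold, log2 fold change 0.93 with SE 0.07, adjusted p = 5.72e-06 by limma). Stra6, the retinol uptake receptor of the pigment epithelium, was 2.11-fold lower (limma adjusted p = 6.97e-05), and Rgr, an opsin of the same cells and of Müller glia, had 428, 284 and 688 against 2278, 2334 and 1303 (limma adjusted p = 0.000375). The cholesterol exporter Abcg1 was 1.38-fold lower (limma adjusted p = 0.00180). Slc1a2, the second glial glutamate transporter, rose 1.26-fold (7759 ± 967 against 6179 ± 411, mean ± SD of 3 libraries each, adjusted p = 0.0443 by limma). The pigment epithelium markers given beside Rlbp1 lay lower as Stra6 and Rgr did, and their part in those falls was not tested.

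Notch and progenitor factors, the setting of Hes1 and Sox2, had 3 of 26 higher (Notch1, Notch2 and Nfia) and 1 lower (Hes6), with a median log2 fold change of 0.12. These shares are near the 6.79% and 5.21% of all genes called higher and lower. Notch2 had 583, 736 and 592 normalized reads under the KO label and 377, 241 and 279 in wild type (2.13-fold, log2 fold change 1.11 with SE 0.17, adjusted p = 0.000900 by limma). Hes1 and Hes5, which read out the pathway, did not pass (log2 fold changes -0.23 and -0.36, adjusted p = 0.163 and 0.0888 by limma). The related Hey1 (-0.21), Hey2 (0.30) and Heyl (0.13) differed in sign and did not pass either (adjusted p = 0.209, 0.154 and 0.719 by limma). Around Ccnd1, a list of 22 cell cycle and regeneration genes had 20 tested, 3 higher (Cdk6, Insm1 and Lin28a) and 1 lower (Cdkn1a). Among those counted but not called was Taz, a symbol that here is tafazzin and not a cell cycle gene (adjusted p = 0.868 by limma). Cdk6, a kinase partner of cyclin D1, had 644, 660 and 629 against 176, 166 and 141 (limma adjusted p = 7.12e-07), and the cell cycle inhibitor Cdkn1a was 1.57-fold lower (limma adjusted p = 0.00771). Mki67 and Top2a, which are made in dividing cells, had 10 reads each in the 6 libraries together, spread over both groups near the floor.

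A list of astrocyte reactivity genes, without the members named above, gave 7 higher and 4 lower of 26 tested (29 listed, median log2 fold change 0.17). H2-D1, a class I antigen presentation gene, rose 2.30-fold (15089 ± 1093 against 6551 ± 199, mean ± SD of 3 libraries each, adjusted p = 4.05e-07 by limma), Serping1, the C1 inhibitor, 1.92-fold (limma adjusted p = 7.28e-05) and S1pr3, a sphingosine phosphate receptor, 2.01-fold (limma adjusted p = 0.000339). Lower beside Lcn2 were Hspb1, Fkbp5, Emp1 and Tm4sf1. Reactivity genes outside the 32 members thus also moved in both directions. Osmr and Hspb1 are called here and counted in the lists above as well, so that the lists are not separate. Of the 26, edgeR called 6 higher and 3 lower, DESeq2 7 and 5, and limma-voom 9 and 8.

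In the authors' deposited table, from DESeq2, 18 of the 32 genes had an adjusted p under 0.05 against no change (14.3% of 19477 genes with an adjusted p), and 30 of the 32 had the same call as here. The 2 that differed were Abca8a (adjusted p = 0.00878 in the authors' deposited table) and Aldh1l1 (adjusted p = 0.0369 in the authors' deposited table). Tested against a log2 fold change of 1, only Gfap (adjusted p = 1.69e-07) and A2m (adjusted p = 0.00901) of the 32 passed in the authors' deposited table, where 0.674% of 28920 genes did, and Serpina3n did not (adjusted p = 0.0764). These are the same 6 libraries, so the calls are not independent.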

How the data were processed

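RNA of 6 mouse retinas was measured, and 1 table held all libraries. The deposited values are signal, taken here to be gene read counts divided by size factors by the authors. The names of the library columns do not state this, and the reading rests on the whole reads recovered below. The submitters' processing notes name DRAGEN, cutadapt 3.0, STAR 2.7.3a, HTSeq 0.12.4, SAMtools 1.9, DESeq2 and the builds GRCm38 and mm10, with neither the role of each tool nor the strand setting. Beside these, the authors' deposited table holds log2 fold changes, DESeq2 test scores and p-values.

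Whole reads were recovered from the size of the smallest steps in each library: of 166478 values above 0, 100% came out whole within 0.01 reads, giving library totals of 44231112 to 62813549 reads. Intervals cover the spread between libraries, and 3 per group limit their precision. A gene was tested if 3 or more libraries reached a value of 10 (20277 genes) with limma-trend (limma 3.58.1, R 4.3.3) on log2(value + 1), with Benjamini-Hochberg adjustment, called under 0.05. Log2 fold changes are on that scale, which understates changes of low genes, and folds are ratios of group means. Abundance per kilobase used exon lengths of GENCODE M21. On recovered reads edgeR 4.0.16 called 2494 genes and DESeq2 1.42.0 called 2883, against 2432 with limma. Scaling to total reads moved the median log2 fold change of all genes to 0.06.

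Alternatives were the edgeR, DESeq2 and limma-voom fits, scaling to total reads and to the identity genes, pseudocounts of 0.5 and 4, no filter, a minimum of 50, the replicate number as a block, and each library left out. The scripts were tested on simulated data. Members and gene lists were chosen with earlier results of these data known. Named were all 32 members and, of each other list, up to 4 genes with the smallest adjusted p, and ligands, receptors and STATs of the interleukin 6 list, from which 1 gene is not reported here. Other genes named from these lists (such as Cebpb, Nfia, Abca8b, Slc1a2, Slc38a5, Serpina3g, Hes5, Mki67, Top2a, Socs1, Pias3, Pdgfra, Aldoc, Fkbp5, Emp1 and Tm4sf1) were chosen after their values were seen. The kappa B consensus replaced another form of that motif after matches had been seen.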

Additional observations from a re-analysis of the deposited data

How the results depend on the processing

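Of the 16 members called, 12 kept their call and direction under all alternatives that gave them a value (15 for Glul and Car14, 16 for the others), and none of the 16 changed direction. Slc1a3, Sox9, Vim and Clu lost theirs in the cases given with their values. Of the 16 members not called, 6 passed under some alternative (Aqp4, Abca8a, Hes1, Timp1, Nes and Aldh1l1). With limma-voom 4650 genes were called in all and 1 further resting gene was lower, Hes1. The cause was not tested. Leaving out 1 library gave 1297 to 3214 genes (lowest without wild type 3, and 1452 and 1453 without wild type 2 and KO 3), 0 to 2 identity genes higher (0 without KO 3, wild type 2 or wild type 3, and 1 without KO 1 or wild type 1) and 1 to 4 further resting genes higher (1 without wild type 3), with fewer samples in each fit. The reactive counts were 8 higher and 1 lower in each of these.

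Members near 0 turned sign. Rlbp1 was at 0.0388 with limma-voom and 0.0323 with scaling to total reads, Mt2 at -0.0192 with limma-voom, Dkk3 at 0.0533 with total reads, and Mt1 at 0.0381 with total reads and 0.0446 with scaling to the identity genes (log2 fold changes, cause not tested). Leaving out 1 library moved Rlbp1 from -0.0770 to 0.0266, Dkk3 from -0.0681 to 0.0496, Mt1 from -0.0690 to 0.0432, Mt2 from -0.0443 to 0.1351 and S100b from -0.0566 to 0.1595. Scaling to the identity genes gives no value for those 8 genes.

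With the replicate number as a block, 1624 genes were called, and 0 identity genes were higher (Slc1a3 adjusted p = 0.0641, Sox9 adjusted p = 0.120), while the other member counts were as without it. The deviations of same-numbered libraries correlated at -0.182, -0.133 and -0.0141, so that the numbers do not pair the retinas.

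Depth limits Timp1, Pax2 and the cytokines, which rest on few reads. With 3 retinas a group, small differences such as those of Aqp4, Kcnj10 and Hes1 cannot be settled.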

Other observations

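Blood and vessel markers were also measured. All 5 red blood cell markers rose, with a summed level of 5661 to 8293 normalized reads under the KO label and 1467 to 2232 in wild type. Of 10 endothelial and pericyte markers 1 rose, Kdr, a receptor for vascular endothelial growth factor (log2 fold change 0.84 with SE 0.11, adjusted p = 0.000457 by limma), while 6 were higher at an unadjusted p under 0.05, and edgeR called 1, DESeq2 3 and limma-voom 5 higher. Their summed level was 9076 to 10215 normalized reads against 6644 to 7840. Of all genes tested, limma called 6.79% higher and 5.21% lower. In either direction, edgeR called 2494 genes, DESeq2 2883 and limma-voom 4650. The share of all genes at an unadjusted p under 0.05 was not counted. Markers of inner retinal neurons were counted in the same way. Of 12 markers of amacrine, ganglion and horizontal cells, 0 passed with limma, edgeR, DESeq2 or limma-voom (1 higher and 1 lower at an unadjusted p under 0.05 with limma). Of 9 bipolar markers Pcp2 fell (log2 fold change -0.37 with SE 0.11, adjusted p = 0.0481 by limma). DESeq2 and limma-voom each called 1 bipolar marker lower, edgeR 0, and limma-voom 2 higher. With lists this short, the limma counts for inner neurons cannot be told from the shares of all genes. The part of blood or vessel content in the glial values was not tested.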
